A study of Homo sapiens with 17 samples.

Results

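The genes described here are the activators of the circadian clock and the factors that regulate them through neighbouring promoter elements: ARNTL, ARNTL2, CLOCK, NPAS2, RORA, NFIL3, BHLHE40 and BHLHE41. These 8 genes, of 58870 entries in the count table, were found by symbol, and all 8 had enough counts to be tested. The set was chosen by the level of ARNTL, which was higher in the 12 h libraries than in the 0 h libraries. The values at 12 h against 0 h are therefore given as a description without a test, and ARNTL is tested only between times other than 0 h and 12 h. Messenger RNA was sequenced, from total RNA with a stranded paired-end kit, in the human line MDA-MB-231, which grew out of a triple-negative breast tumour and is labelled mesenchymal and basal B. Every culture received TRAIL, a death receptor ligand of the TNF family that triggers apoptosis in many tumour lines, at 45 nM, a dose the submitters describe as below the optimum and chosen so that living cells were measured. RNA was taken at 0, 1, 3, 6, 12 and 24 h, with 3 libraries per time and 2 at 1 h, and the 0 h libraries carry the same treatment label as the others. Later times have no untreated library among those labelled, and hours of TRAIL cannot be told apart from hours of culture or since handling in any comparison. The labels do not say whether replicates came from separate cultures, and p-values then measure only the spread between these libraries.

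The circadian clock is a loop of transcription and translation that runs in most mammalian cells, cell lines included. ARNTL (also called BMAL1) or its paralogue ARNTL2 pairs with CLOCK or NPAS2, and the pair binds E-boxes and drives the PER, CRY, REV-ERB (NR1D1, NR1D2), DBP and TEF genes. PER and CRY proteins inhibit the pair. REV-ERB proteins repress and ROR proteins such as RORA activate ARNTL through a shared element, NFIL3 represses through the D-boxes that DBP and TEF activate, and BHLHE40 and BHLHE41 (DEC1 and DEC2) are repressors that bind the E-box itself and are themselves driven from it.

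Some of these elements can be seen in the promoters. RefSeq windows (GRCh38.p14) from 250 bases before to 50 bases after a gene's start were found for 8 of the 8 genes, 11 windows in all because some genes have several starts. Both strands were searched for the E-box CACGTG, for the D-box as TTATGTAA or TTACGTAA, for the ROR and REV-ERB element (AANTN followed directly by GGTCA) and for the NF-κB site. In the windows of the 8 genes no match of one kind overlapped a match of another, and the only overlapping matches were a pair of NF-κB matches in CLOCK. A match describes letters in a window, not a bound site. Shown are the 3 windows that hold the element named above for their gene, with the matching bases in capitals: the ROR and REV-ERB element in 1 of the 2 ARNTL windows, and the E-box in BHLHE40 and BHLHE41.
ARNTL, chr11:13277540-13277839, plus strand: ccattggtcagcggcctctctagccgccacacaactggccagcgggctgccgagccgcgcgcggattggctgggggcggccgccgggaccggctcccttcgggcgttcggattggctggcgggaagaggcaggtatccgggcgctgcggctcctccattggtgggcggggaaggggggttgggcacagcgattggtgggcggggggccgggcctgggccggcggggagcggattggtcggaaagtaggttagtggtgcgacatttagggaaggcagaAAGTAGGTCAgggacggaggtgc
BHLHE40, chr3:4979187-4979486, plus strand: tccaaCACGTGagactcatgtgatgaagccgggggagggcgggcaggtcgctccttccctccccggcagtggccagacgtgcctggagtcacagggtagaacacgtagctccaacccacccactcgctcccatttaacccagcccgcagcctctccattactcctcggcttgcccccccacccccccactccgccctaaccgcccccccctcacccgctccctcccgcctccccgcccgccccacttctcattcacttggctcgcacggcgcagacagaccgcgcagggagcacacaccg
BHLHE41, chr12:26124988-26125287, minus strand: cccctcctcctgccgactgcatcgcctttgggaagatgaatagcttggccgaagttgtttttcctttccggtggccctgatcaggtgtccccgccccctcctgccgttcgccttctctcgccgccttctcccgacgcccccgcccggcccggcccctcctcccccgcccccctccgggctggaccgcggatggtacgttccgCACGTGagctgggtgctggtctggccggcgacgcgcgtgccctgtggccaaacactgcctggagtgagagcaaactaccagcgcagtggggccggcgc
Counted from the RefSeq start used for its window, the ARNTL match, AAGTAGGTCA, begins at base 28. On the same count the E-box begins 245 bases before the start in BHLHE40 and 48 bases before it in BHLHE41. The GENCODE gene spans given below begin further upstream, at 4979116 for BHLHE40 and, on the minus strand, at 26125127 for BHLHE41. Both E-boxes therefore lie inside those spans, and the ARNTL match lies inside the ARNTL span. Of 34943 promoter windows of that length, 7.23% held the E-box, 1.02% a D-box, 0.584% the ROR and REV-ERB element and 11.3% an NF-κB site. Among the other members, 1 CLOCK window held the ROR and REV-ERB element and NF-κB matches, the ARNTL2 window held 1 NF-κB match, and the windows of NPAS2, RORA and NFIL3 held 0 matches of these 4 kinds.

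Library totals ran from 13731497 to 19234939 counts, and 15365 genes were tested. Levels are given in CPM, which relates a gene's counts to its library's TMM-scaled total. The label of the line was checked: VIM lay at 2495 CPM or more and CD44 at 1219 CPM or more in every library, while ESR1, PGR, PTPRC, KRT5 and KRT14 had at most 5 counts in any library, CDH1 at most 16 and PECAM1 at most 68. EPCAM and ERBB2, also among the 11 markers listed for this check, had enough counts to be tested, and their levels are not reported here. Transcript length bore on the counts to a different degree in each library. For each library, the deviation of a gene's log2 CPM from its mean over the 17 libraries was regressed on log2 length. The slope averaged -0.037 (0 h), -0.099 (3 h), 0.068 (6 h), 0.017 (12 h) and 0.096 (24 h). Long transcripts thus counted for more at 6 h and 24 h than at the other times. The members with the longest coding transcripts are RORA (10844 bases), CLOCK (10304) and ARNTL2 (6785), and values with length and GC trends removed are given beside their results. The share of counts from mitochondrial genes also moved with time, from 7.99% to 8.97% at 3 h and from 3.97% to 5.45% at 6 h, and its part in the results was not tested. Replicates 2 and 3 were much alike at 6 h and at 24 h (chi-square per gene 1.55 and 1.68, against 3.86 to 14.6 in the other pairs of replicates), and results that change when each such pair is averaged are pointed out.

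Per length, BHLHE40 and NPAS2 were the most abundant members and RORA the least. At 0 h the mean level per kb of the longest coding transcript was 24.3 CPM per kb for BHLHE40, 18.4 for NPAS2, 8.50 for NFIL3, 7.32 for ARNTL2, 4.64 for CLOCK, 1.73 for BHLHE41, 1.15 for ARNTL and 0.077 for RORA, and no neighbours in that order overlapped between libraries. At 12 h BHLHE40 (23.9 CPM per kb) and NPAS2 (23.7) overlapped, and at 24 h NPAS2 (21.3) lay above BHLHE40 (18.2) in all libraries. ARNTL and BHLHE41 overlapped at 3 h and 24 h, and NFIL3 and ARNTL2 at the same times. ARNTL2 was thus the more abundant of the ARNTL paralogues at every time, and NPAS2 lay above CLOCK at every time.

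**Figure D1:**
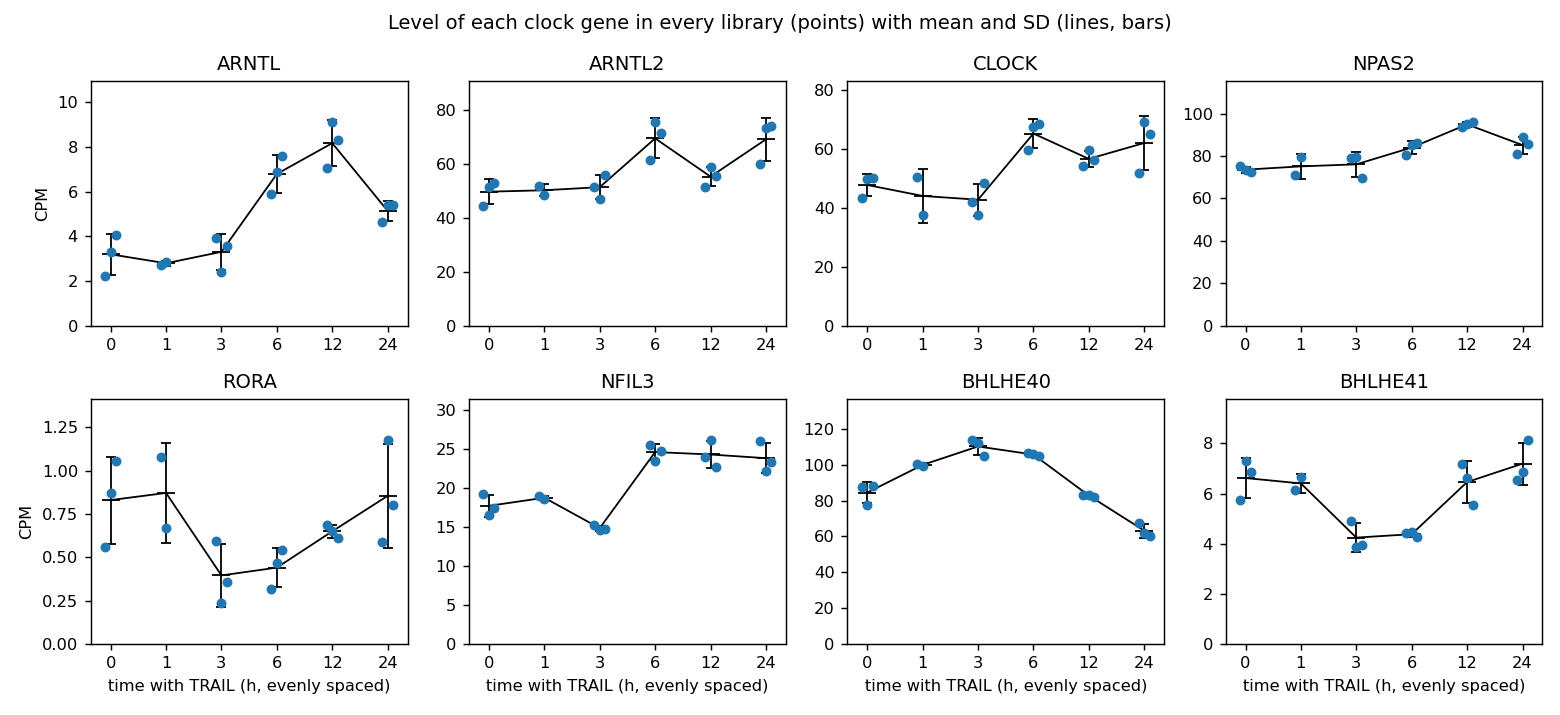
Level of each of the 8 genes in CPM (vertical axis, from 0) at each time with TRAIL (horizontal axis, times evenly spaced and not to scale). Points are single libraries, lines join the means and bars are the SD (n = 3, n = 2 at 1 h). ARNTL is highest at 12 h (7.06 to 9.13 CPM), BHLHE40 at 3 h (105 to 114 CPM), and BHLHE41 is lowest at 3 h and 6 h.

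ARNTL, the activator without which the loop stops, differed most from its 0 h level among the members at 12 h. It was chosen by that very comparison, so this rank is a description and not a result. ARNTL (ENSG00000133794) is a protein-coding gene of chromosome 11 (13276652 to 13387266, plus strand, GENCODE 29 on GRCh38). Its libraries stood at 2.24, 3.30 and 4.05 CPM (0 h), 2.72 and 2.87 (1 h), 3.93, 2.41 and 3.59 (3 h), 5.88, 6.90 and 7.61 (6 h), 7.06, 9.13 and 8.33 (12 h), and 4.63, 5.39 and 5.40 (24 h). All 9 libraries from 6 h on lay above all 8 earlier ones, the 6 h and 12 h libraries overlapped, and the 24 h libraries lay below both. Between times that did not choose the gene, ARNTL rose by 1.04 on the log2 scale between 3 h and 6 h (SE 0.191, adjusted p 3.3e-04). It did not pass the test from 1 h to 3 h (0.25, adjusted p 0.62) or from 6 h to 24 h (-0.41, SE 0.174, adjusted p 0.0994). The latter passed once length and GC trends were removed (-0.44, adjusted p 0.0471). As a description, the log2 fold change against 0 h was -0.19 (1 h), 0.054 (3 h), 1.09 (6 h), 1.36 (12 h, SE 0.182) and 0.68 (24 h), and from 12 h to 24 h it was -0.68. The 0 h libraries spread widely for a gene of 31 to 182 counts, and the 12 h value became 1.15 when the 0 h replicate 1 was left out and 1.56 when the 0 h replicate 3 was. As these are bulk libraries, more cells with ARNTL RNA and more ARNTL RNA per cell cannot be told apart, which holds for every gene below.

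ARNTL2, the paralogue that can take ARNTL's place in the pair, rose at 6 h and 24 h, with a lower level between them. ARNTL2 (ENSG00000029153, chromosome 12, 27332854 to 27425289, plus strand, protein-coding) stood at 44.4, 51.5 and 53.0 CPM (0 h), 51.8 and 48.6 (1 h), 51.3, 46.8 and 55.9 (3 h), 61.2, 75.6 and 71.4 (6 h), 51.6, 58.8 and 55.4 (12 h), and 59.8, 73.2 and 74.1 (24 h). The libraries at 6 h and 24 h lay above all those at 0 h, and those at 12 h overlapped them. ARNTL2 rose by 0.48 at 6 h (SE 0.0958, adjusted p 0.00119) and by 0.47 at 24 h (SE 0.0959, adjusted p 0.00112) against 0 h. With length and GC trends removed these values were 0.32 and 0.26, both still past the threshold. Between 6 h and 12 h ARNTL2 fell by 0.33 (adjusted p 0.0197), and between 12 h and 24 h it rose by 0.32 (adjusted p 0.0349), while ARNTL went the other way in the second step. With length and GC trends removed both steps kept their calls (-0.28 and 0.21, adjusted p 5.9e-04 and 0.0104). Both calls were lost when the like replicates were averaged (adjusted p 0.0997 and 0.164). The first was also lost when scaled by library size alone (0.0580), and again without the 6 h replicate 2 or 3 or the 12 h replicate 1 or 3 (0.0537 to 0.104). The second was lost without the 12 h replicate 1 or 3 or the 24 h replicate 2 or 3 (0.0782 to 0.153).

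The balance between the paralogues was read within each library, where scaling cancels. ARNTL counts per 100 ARNTL2 counts averaged 6.36 ± 1.29 (0 h), 5.58 ± 0.454 (1 h), 6.41 ± 1.26 (3 h), 9.79 ± 0.778 (6 h), 14.8 ± 0.949 (12 h) and 7.46 ± 0.234 (24 h), with SD over n = 3 libraries or n = 2 for 1 h. The 12 h libraries (13.7 to 15.5) lay above all others, and the 24 h libraries (7.30 to 7.73) overlapped those at 0 h (5.04 to 7.63). The 12 h values take part in the choice of ARNTL and are a description. ARNTL2 has the longer transcript (6785 bases against 2788), so this ratio also carries the length trend of each library. At 24 h against 0 h the log2 fold changes were 0.68 for ARNTL and 0.47 for ARNTL2. With length and GC trends removed they were 0.68 and 0.26, so the overlap of the 24 h and 0 h ratios depends on that trend.

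**Figure D2:**
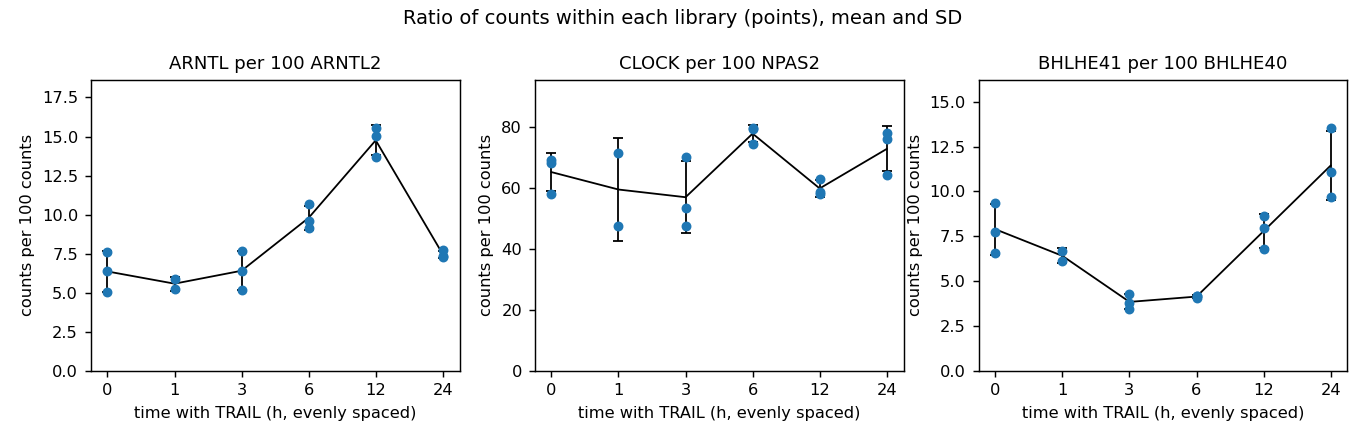
Counts of one gene per 100 counts of its paralogue or alternative partner within each library (vertical axes, from 0) against time with TRAIL (horizontal axes, evenly spaced). Points are libraries, lines join means and bars are the SD (n = 3, n = 2 at 1 h). ARNTL per 100 ARNTL2 peaks at 12 h (14.8 ± 0.949), and BHLHE41 per 100 BHLHE40 is lowest at 3 h (3.84 ± 0.422).

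CLOCK and NPAS2 encode the alternative partners of ARNTL, and CLOCK rose at 6 h and 24 h against 0 h. CLOCK (ENSG00000134852, chromosome 4, 55427903 to 55547138, minus strand, protein-coding) stood at 43.5, 49.9 and 50.04 CPM (0 h), 50.6 and 37.6 (1 h), 42.1, 37.7 and 48.5 (3 h), 59.7, 67.6 and 68.6 (6 h), 54.2, 59.7 and 56.1 (12 h), and 51.9, 69.3 and 65.0 (24 h). All 9 libraries from 6 h on lay above the 3 at 0 h. CLOCK rose by 0.45 at 6 h (SE 0.116, adjusted p 0.00795) and by 0.38 at 24 h (SE 0.116, adjusted p 0.0185) against 0 h, and its step between 3 h and 6 h was a rise of 0.61 (SE 0.118, adjusted p 6.1e-04). With length and GC trends removed, the rise at 6 h was 0.24 (adjusted p 0.00410) and that from 3 h to 6 h was 0.29 (adjusted p 6.6e-04), while the 24 h value fell short (0.13, adjusted p 0.101). The 24 h call was also lost with the like replicates averaged (adjusted p 0.1003) and without the 0 h replicate 1 or the 24 h replicate 2 or 3 (0.0902, 0.102 and 0.0677). The gene overlaps TMEM165 on the opposite strand, which had 1280 to 2317 counts. The kit was stranded, but whether the counting used strand is not given in the sources used here.

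NPAS2, the partner known best from the forebrain, rose at 6 h and 24 h against 0 h and had its highest libraries at 12 h. NPAS2 (ENSG00000170485, chromosome 2, 100820152 to 100996829, plus strand, protein-coding) stood at 75.2, 73.2 and 72.3 CPM (0 h), 70.9 and 79.3 (1 h), 79.1, 79.8 and 69.4 (3 h), 80.3, 85.3 and 86.3 (6 h), 93.5, 95.1 and 96.1 (12 h), and 80.9, 88.9 and 85.7 (24 h). The 12 h libraries lay above all others. NPAS2 rose by 0.19 at 6 h (SE 0.0632, adjusted p 0.0276) and by 0.21 at 24 h (SE 0.0632, adjusted p 0.0143) against 0 h. The log2 fold change at 12 h was 0.37 (SE 0.0629, not tested). The steps from 6 h to 12 h (0.18, adjusted p 0.0508) and from 12 h to 24 h (-0.16, adjusted p 0.103) did not pass, and both passed with length and GC trends removed (0.20 and -0.19, adjusted p 0.00369 and 0.00986). The first of these steps also passed in DESeq2 (0.0309), with RLE scaling (0.0469), with library size alone (0.0256) and with only the compared times (0.0213). The call at 6 h was lost without any single 0 h library, without the 6 h replicate 2 or 3 (adjusted p 0.0566 to 0.109), without the filter on low counts (0.0621) and with the like replicates averaged (0.136). The call at 24 h was lost with that averaging (0.0820) and without the 24 h replicate 2 (0.0729). NPAS2 counts were not whole in 17 of 17 libraries, that is, part of them was estimated by the counter, and its values are uncertain to that extent.

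The mix of partners was read in the same way. CLOCK counts per 100 NPAS2 counts averaged 65.1 ± 6.27 (0 h), 77.7 ± 2.88 (6 h), 59.7 ± 2.72 (12 h) and 72.7 ± 7.38 (24 h) (SD, n = 3 each). The 6 h libraries (74.4 to 79.4) lay above those at 0 h (57.9 to 69.2), and the 12 h libraries overlapped them. CLOCK has the longer transcript by far, so this ratio carries the length trend of each library.

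RORA and NFIL3 act on the ARNTL loop from outside the E-box. RORA (ENSG00000069667, chromosome 15, 60488284 to 61229319, minus strand, protein-coding) was near the limit of detection, with 3 to 19 counts per library. RORA stood at 0.560, 0.872 and 1.06 CPM (0 h), 1.08 and 0.667 (1 h), 0.593, 0.233 and 0.359 (3 h), 0.316, 0.464 and 0.540 (6 h), 0.686, 0.652 and 0.611 (12 h), and 0.585, 1.18 and 0.801 (24 h). The 6 h libraries lay below those at 0 h, and the others overlapped them. No RORA comparison passed the test: the log2 fold change was -1.05 at 3 h (SE 0.424, adjusted p 0.0875) and -0.89 at 6 h (SE 0.398, adjusted p 0.0917). It passed at 6 h with length and GC trends removed (-1.11, adjusted p 0.0260) and at 3 h without the 0 h replicate 1 (-1.26, adjusted p 0.0494). RORB, a related receptor, had at most 12 counts in any library.

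NFIL3, also called E4BP4, was lowest at 3 h and rose by 6 h. NFIL3 (ENSG00000165030, chromosome 9, 91409045 to 91423862, minus strand, protein-coding) stood at 19.2, 16.5 and 17.4 CPM (0 h), 18.9 and 18.6 (1 h), 15.2, 14.6 and 14.8 (3 h), 25.6, 23.5 and 24.8 (6 h), 24.0, 26.2 and 22.8 (12 h), and 26.0, 22.2 and 23.4 (24 h). The 3 h libraries lay below all others and the 9 libraries from 6 h on lay above all earlier ones. From 3 h to 6 h NFIL3 rose by 0.73 (SE 0.0858, adjusted p 9.2e-06). Against 0 h it rose by 0.48 at 6 h (SE 0.0824, adjusted p 3.7e-04) and by 0.43 at 24 h (SE 0.0827, adjusted p 7.5e-04), and the value at 12 h was 0.46 (not tested). The dip against 0 h fell just short of the threshold (-0.25, SE 0.0885, adjusted p 0.0521) and passed with length and GC trends removed (-0.28, adjusted p 0.00954), when scaled by library size alone (-0.32, adjusted p 0.0143) and with the replicate block (-0.25, adjusted p 0.0493). The dip from 1 h to 3 h was called (-0.34, adjusted p 0.0471) but in 0 of the 5 fits that left out a 1 h or 3 h library (adjusted p 0.0794 to 0.267), and not in DESeq2 (0.0719) or with the replicate block (0.0564). That call was also lost with RLE scaling (0.0522), without the filter on low counts (0.0634) and with only the compared times (0.130). Averaging the like replicates lost it too (0.0648), and it was kept with length and GC trends removed (-0.33, adjusted p 0.0116).

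BHLHE40 and BHLHE41, paralogous repressors whose RefSeq windows are shown above with an E-box each, moved in opposite directions at 3 h and 6 h. BHLHE40 (ENSG00000134107, chromosome 3, 4979116 to 4985323, plus strand, protein-coding) stood at 87.4, 77.7 and 88.3 CPM (0 h), 101 and 99.4 (1 h), 114, 112 and 105 (3 h), 107, 106 and 105 (6 h), 83.2, 83.3 and 82.0 (12 h), and 67.6, 61.9 and 60.2 (24 h). The libraries from 1 h to 6 h lay above all those at 0 h, those at 12 h overlapped them and those at 24 h lay below all others. BHLHE40 rose by 0.38 at 3 h (SE 0.0597, adjusted p 2.1e-04) and by 0.32 at 6 h (SE 0.0593, adjusted p 6.1e-04), and fell by 0.42 at 24 h (SE 0.0606, adjusted p 6.2e-05), all against 0 h. At 1 h the value was 0.24 (SE 0.0663, adjusted p 0.245). Between 6 h and 12 h it fell by 0.35 (adjusted p 3.8e-04), and between 12 h and 24 h it fell by 0.39 (adjusted p 6.4e-04). These 5 calls held in every alternative fit, each library left out included.

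BHLHE41 (ENSG00000123095, chromosome 12, 26120026 to 26125127, minus strand, protein-coding) had 50 to 132 counts per library. It stood at 5.72, 7.29 and 6.85 CPM (0 h), 6.14 and 6.67 (1 h), 4.89, 3.88 and 3.94 (3 h), 4.42, 4.44 and 4.26 (6 h), 7.20, 6.62 and 5.55 (12 h), and 6.56, 6.88 and 8.14 (24 h). All 6 libraries at 3 h and 6 h lay below the 11 others. BHLHE41 fell by 0.64 at 3 h (SE 0.145, adjusted p 0.00495) and by 0.60 at 6 h (SE 0.140, adjusted p 0.00378) against 0 h, and between 6 h and 12 h it rose by 0.56 (SE 0.139, adjusted p 0.00801). It did not pass at 24 h against 0 h (0.12, SE 0.132, adjusted p 0.515). The fall from 1 h to 3 h (-0.59, adjusted p 0.0331) was not called in DESeq2 (0.0637) or without the 1 h replicate 1 or 2 or the 3 h replicate 2 or 3 (0.0819 to 0.170). BHLHE41 counts per 100 BHLHE40 counts were 7.89 ± 1.42 (0 h), 3.84 ± 0.422 (3 h), 4.14 ± 0.0636 (6 h), 7.79 ± 0.947 (12 h) and 11.4 ± 1.93 (24 h) (SD, n = 3 each). The ratio lay below all 0 h libraries at 3 h and 6 h and above all of them at 24 h. On the opposite strand, BHLHE40-AS1 overlaps BHLHE40 and had 5 to 13 counts, and SSPN overlaps BHLHE41 and had 5 to 34.

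Of the members, most were called at 6 h and fewest at 1 h against 0 h. At 1 h against 0 h, 0 of the 7 members read were called, where 0.312% of all genes were, and 1 member (BHLHE40) had an unadjusted p below 0.05. DESeq2 also called 0. At 3 h, 1 of 7 was higher (BHLHE40) and 1 lower (BHLHE41), where 9.04% of all genes were higher and 8.71% lower. At 6 h, 5 of 7 were higher and 1 lower, where 16.9% of all genes were higher and 13.2% lower. At 24 h, 4 of 7 were higher and 1 lower, where 18.0% and 17.1% were. The count at 24 h was 3 with the like replicates averaged and 3 without the 24 h replicate 2. From 3 h to 6 h, 4 of 8 members were higher (ARNTL, ARNTL2, CLOCK and NFIL3) and 0 lower, where 22.9% and 20.3% of all genes were. From 1 h to 3 h, 2 of 8 were lower (NFIL3 and BHLHE41), where 3.17% of all genes were higher and 2.56% lower. From 6 h to 12 h, 1 of 7 was higher (BHLHE41) and 2 lower (ARNTL2 and BHLHE40), beside 8.70% and 11.9% of all genes. From 12 h to 24 h, 1 of 7 was higher (ARNTL2) and 1 lower (BHLHE40), beside 6.42% and 5.60%. From 6 h to 24 h, 1 of 8 was higher (BHLHE41) and 1 lower (BHLHE40), beside 11.0% and 12.1%. The median log2 fold change of the 8 members against 0 h was 0.023 (1 h), -0.055 (3 h), 0.39 (6 h), 0.20 (12 h) and 0.29 (24 h), beside -0.0041, -0.0041, -0.022, -0.0032 and -0.0017 for all genes. Unlike the counts, these medians include ARNTL, whose 0 h and 12 h values chose the set. They are a description and were not tested.

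**Figure D3:**
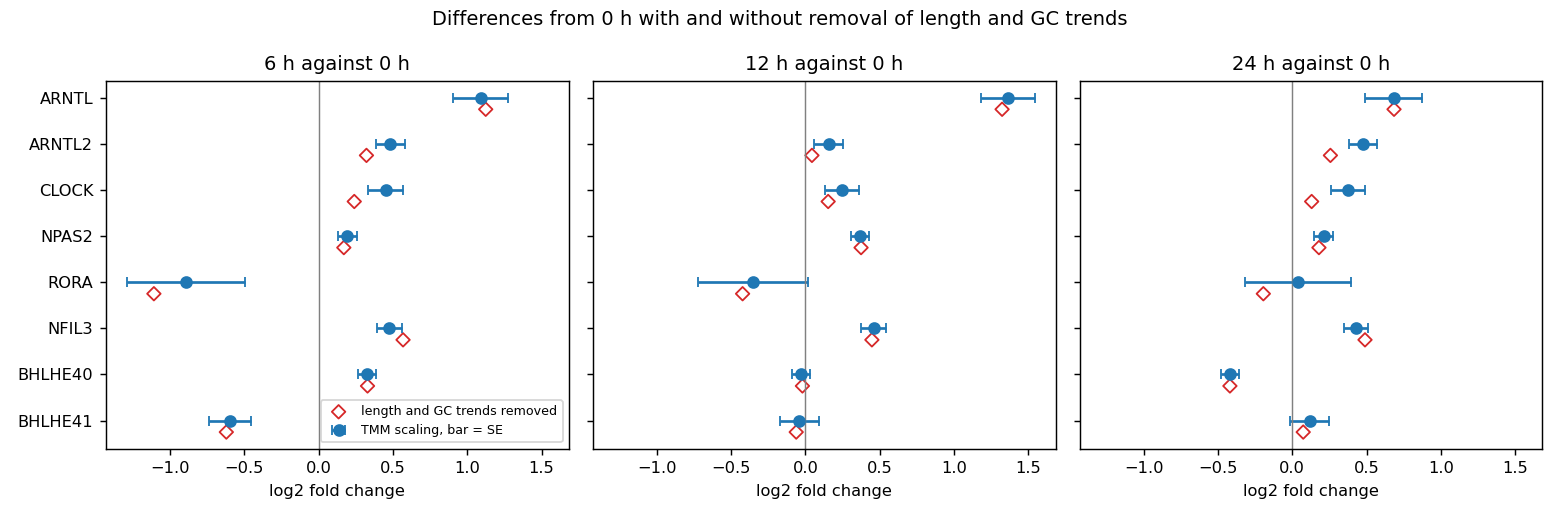
Log2 fold change against 0 h (horizontal axis, the same scale in each panel) of the 8 genes at 6, 12 and 24 h. Filled circles are from the fit with TMM scaling and their bars are the SE, and open diamonds are from the fit with length and GC trends of each library removed. ARNTL2 and CLOCK move towards 0 at 24 h (0.47 to 0.26 and 0.38 to 0.13), while ARNTL, NFIL3 and BHLHE40 move by less than 0.1.

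The repressor and output side of the loop was read from lists of PER, CRY, REV-ERB and CIART genes (8) and of PAR bZIP genes (DBP, TEF and HLF). All 8 of the first list were tested, while HLF had at most 7 counts and was not. PER1 is listed in the table under another symbol and was matched by its Ensembl identifier. Of the 8, against 0 h, 3 h saw 1 higher and 3 lower, 6 h saw 1 higher and 6 lower, and 24 h saw 4 lower, beside the shares of all genes given above (16.9% higher and 13.2% lower at 6 h, 18.0% and 17.1% at 24 h). The REV-ERB gene NR1D1 fell by 1.13 at 3 h (adjusted p 8.8e-06) and by 1.42 at 6 h (adjusted p 5.4e-07), then gained 1.94 between 6 h and 12 h (adjusted p 6.4e-09). Its level was 15.7 ± 1.27 CPM (0 h), 5.90 ± 0.624 (6 h), 22.7 ± 2.00 (12 h) and 9.84 ± 1.10 (24 h) (SD, n = 3 each). DBP fell at 3 h (log2 fold change -1.47, adjusted p 1.5e-05) and 6 h (-1.57, adjusted p 4.9e-06), and so did TEF (-1.05 and -1.51, adjusted p 2.0e-06 and 2.6e-08). Between 6 h and 12 h DBP rose by 1.51 (adjusted p 9.9e-06) and TEF by 1.33 (2.1e-07). Of the 8 genes of the first list, 5 were higher and 1 lower in this step, where 8.70% and 11.9% of all genes were. The lower one was CRY1 (-0.47, adjusted p 0.00265). PER2 (0.19, adjusted p 0.283) and PER3 (-0.19, adjusted p 0.132) did not pass. CIART, a repressor of the ARNTL pair, fell at 6 h (-1.03, adjusted p 0.0152), as did PER1 (-1.004, 3.5e-05) and PER2 (-0.89, 2.9e-05). The 1 gene of the 8 that was higher at 6 h was CRY1, named here after its values were seen (0.52, adjusted p 8.9e-04). From 3 h to 6 h, 2 of the 8 were lower and 0 higher, where 20.3% and 22.9% of all genes were. These were PER2 (-0.9997, adjusted p 9.9e-06) and PER3 (-0.30, adjusted p 0.00905). TEF fell in the same step (-0.46, adjusted p 0.00567), while NR1D1 (-0.29, adjusted p 0.128) and DBP (-0.099, adjusted p 0.751) did not pass the test. The comparisons against 0 h share the 0 h libraries.

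**Figure D4:**
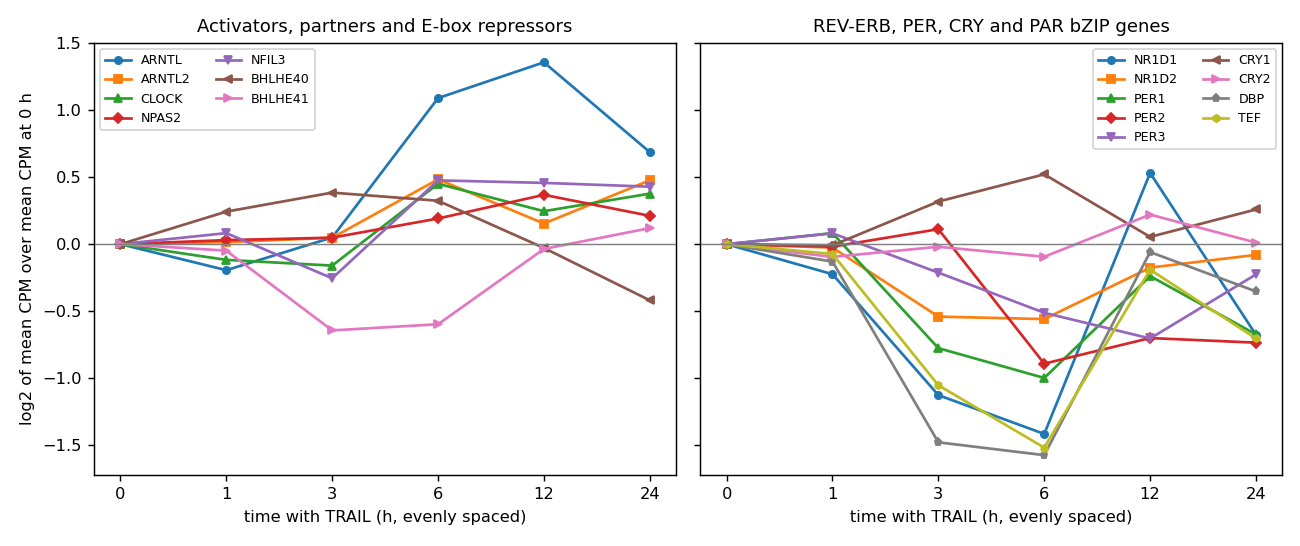
Log2 of the mean CPM at each time over the mean CPM at 0 h (vertical axis, shared) against time with TRAIL (horizontal axis, evenly spaced), for 7 members (left) and 9 genes of the repressor and output lists (right). Each line joins the means of 1 gene. ARNTL lies near 0 up to 3 h and is highest at 12 h, while NR1D1, DBP and TEF are below 0 at 3 h and 6 h.

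Genes that modify clock proteins and relatives of the members were read from further lists. Of 10 tested kinases, ubiquitin ligases and other modifiers of clock proteins, 5 were higher at 6 h and 4 at 24 h against 0 h, with 0 lower at either time, where 16.9% (6 h) and 18.0% (24 h) of all genes were higher. FBXW11, which encodes an F-box protein of a ligase that acts on PER proteins, rose by 0.50 at 6 h (adjusted p 0.0042), and BTRC, its paralogue, by 0.35 (0.0032). Of 7 tested bHLH-PAS factors outside the set, 2 were higher at 6 h and 4 at 24 h, beside the same 16.9% and 18.0% of all genes. Over the other settings the number called ran from 0 to 3 (6 h) and from 2 to 5 (24 h). Among the 4 at 24 h was HIF1A (0.64 at 24 h, adjusted p 0.0095). Of 5 tested HES and HEY genes, relatives of BHLHE40 and BHLHE41, 1 was higher and 3 lower at 24 h, where 18.0% of all genes were higher and 17.1% lower, with HES1 among the lower (log2 fold change -1.03, SE 0.120, adjusted p 7.6e-06).

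The members' patterns were compared over the 17 libraries as a description, since libraries of 1 time share that time's length trend and scaling. ARNTL2 and CLOCK were most alike (Pearson r 0.89), ARNTL was most like NPAS2 (0.80) and CLOCK (0.78), and BHLHE40 and BHLHE41 were most opposed (-0.78). RORA and BHLHE41 gave 0.80, with RORA at few counts. Outside the set, among genes whose log2 CPM averaged 3 or more, AURKA (r 0.93, 179.8 CPM at 0 h and 251 at 12 h) and NET1 (0.93, 121 and 138 CPM) were among the 3 most like ARNTL. These 3 were picked for the highest r, over libraries that include the 0 h and 12 h ones that chose ARNTL.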

How the data were processed

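The authors deposited RSEM expected counts per gene for 17 libraries, not scaled to depth or length. Per the submitters' processing notes, reads were trimmed with cutadapt 1.18 and aligned with STAR 2.7.0f, build hg38; the RSEM version, annotation release and strand setting are not given in the sources used here. Of the values, 10.843% were not whole, and all were rounded. Libraries were grouped by the time in their labels. One model over all 6 times was fitted in edgeR 4.0.16 (R 4.3.3; TMM scaling, quasi-likelihood test, Benjamini-Hochberg adjustment over 15365 genes, threshold 0.05). CPM and log2 fold changes were computed from the deposited expected counts. The members and gene lists were chosen with earlier results of these data known. Named genes were the members, at most the 4 called genes of largest change per list and comparison, and the 3 genes most like ARNTL with average log2 CPM of at least 3. The scripts were tested on simulated counts for 6 h against 0 h. They recovered 80 of 100 genes changed 1.5-fold and 90 of 100 changed 2-fold, and called 10 unchanged genes. Changes smaller than 1.5-fold were not simulated. Totals of 13731497 to 19234939 counts left RORA with 3 to 19 counts, read least precisely of the members. Alternatives were DESeq2 1.42.0, other scalings, no filter on low counts, fits to the compared times alone, a replicate block, length and GC offsets (GENCODE 29 transcripts), averaging of like replicates and leaving out each library. FBXL21 matched 0 entries and AHRR 2, so neither was used. Some genes that these rules cover are not reported here.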

Additional observations from a re-analysis of the deposited data

How the results depend on the processing

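With the like replicates averaged, members called at 24 h against 0 h numbered 3, from 1 h to 3 h 1, and from 12 h to 24 h 1. From 1 h to 3 h the count was also 1 with RLE scaling, without the filter and with the replicate block, and 0 in DESeq2 and with only the compared times. Leaving out 1 library gave 3 to 5 at 24 h, 0 to 1 from 1 h to 3 h and 1 to 2 from 12 h to 24 h. With each time's mean removed, libraries of the same replicate number were at most weakly alike: 8 of 40 same-number pairs had r above 0.1 (-0.20 to 0.21). Their median r was 0.011, against -0.0086 for pairs of other numbers. Of the 17 libraries, 10 correlated best with a library of their own number. No chance level was computed for this count, and whether the numbers pair libraries was not tested. The replicate block gave 6 members called at 6 h, 5 at 24 h and 3 at 3 h against 0 h.

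Values at 12 h against 0 h with length and GC offsets were 0.043 for ARNTL2, 0.15 for CLOCK and -0.42 for RORA, and with the block added 0.042 for ARNTL2 and 0.15 for CLOCK. With library size alone NPAS2 was 0.40 and BHLHE40 0.0057 at 12 h, ARNTL2 -0.031 and NPAS2 -0.017 at 1 h, and ARNTL -0.015, ARNTL2 -0.021 and NPAS2 -0.022 at 3 h. RORA at 24 h was -0.061 with averaging and -0.19 with offsets, with or without the block. Leaving out 1 library at a time, the value at 1 h ran from -0.39 to 0.011 for ARNTL, -0.057 to 0.065 for ARNTL2, -0.34 to 0.076 for CLOCK, -0.059 to 0.11 for NPAS2, -0.31 to 0.37 for RORA and -0.14 to 0.026 for BHLHE41. At 3 h it ran from -0.14 to 0.26 for ARNTL and -0.023 to 0.11 for ARNTL2, and at 24 h from -0.27 to 0.26 for RORA. At 12 h it ran from 1.15 to 1.56 for ARNTL, -0.58 to -0.15 for RORA, -0.085 to -0.0025 for BHLHE40 and -0.14 to 0.058 for BHLHE41. The causes were not tested.

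Genes called among all those tested varied over the settings other than leaving out 1 library, from 2532 to 4971 at 6 h and 3464 to 5602 at 24 h against 0 h, from 312 to 2105 from 1 h to 3 h and from 452 to 2855 from 12 h to 24 h. The bHLH-PAS count ran from 0 to 3 at 6 h and from 2 to 5 at 24 h.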
